A study of Rattus norvegicus with 3 samples.

Results

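The renin-angiotensin system was described in rat medullary thick ascending limb (mTAL) through 8 genes, which were measured by 13 probe sets. The genes were the hormone precursor Agt, the angiotensin II receptors Agtr1a, Agtr1b and Agtr2, the receptor Mas1, the peptidases Ace and Enpep, and Atp6ap2, known as the prorenin receptor. They were chosen by name from the platform annotation, with every probe set that carried 1 of these symbols and no other, out of 14217 genes with 20826 such probe sets. All samples were of 1 group. The mTAL was taken from the outer medulla of male Sprague-Dawley rats 7 to 8 weeks old, which had been given furosemide (1 mg), a loop diuretic, and heparin (250 u) 30 min earlier. The segment was separated on 33.3% Percoll after digestion with collagenase and hyaluronidase, and 3 preparations were each hybridised to 1 Affymetrix array. No untreated or other tissue was included, so furosemide is part of every sample, and no label says whether the preparations came from separate rats or from pools. The p-values therefore rest on the spread of 3 preparations whose biological independence is not stated.

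In the classical form of this system, renin cuts angiotensinogen, the product of Agt, to angiotensin I, and the angiotensin converting enzyme Ace trims that to angiotensin II. Angiotensin II acts on cells through G protein-coupled receptors of type AT1, which rodents carry as the gene pair Agtr1a and Agtr1b, and of type AT2, the product of Agtr2. Aminopeptidase A, the product of Enpep, cuts angiotensin II further, and Mas1 encodes a receptor for a shorter angiotensin peptide. In the kidney, angiotensin II is known to act on salt transport along the tubule, the thick ascending limb included, and angiotensinogen is known to be made in the proximal tubule.

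Of the 13 probe sets, 5 had signals above the background cutoff, 7 lay below it, and 1 passed neither test. The 5 were both probe sets of Agtr1a, both of Atp6ap2 and 1 of the 2 of Enpep. Those below were the probe sets of Agt, Agtr1b, Agtr2 and Mas1, 1 of Ace and the other of Enpep. The cutoff was set on each array as the 95th percentile of 87 probe sets of 74 genes known from other tissues (pituitary, brain, muscle, testis and the like), and it stood at signals of 315, 293 and 356 on replicates 1, 2 and 3. Log2 signal minus cutoff was tested with limma, one-sided in each direction, with Benjamini-Hochberg adjustment over all 20826 probe sets at a threshold of 0.05. Of all probe sets, 47.4% were called above the cutoff and 35.3% below it. Of the 74 other-tissue genes, each by its brightest probe set, 3 were themselves called above it, 64 below it and 7 neither. Those above were Cela1, Krt10 and Mbp. The median over the 13 member probe sets was -1.05 log2 units from the cutoff, beside 0.41 over all probe sets. Signals are linear intensities without a unit, and each probe set has its own strength of hybridisation, so signals of different probe sets were not set against each other as amounts of transcript. A probe set below the cutoff may belong to a gene that is expressed at a level this cutoff cannot show.

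**Figure D1:**
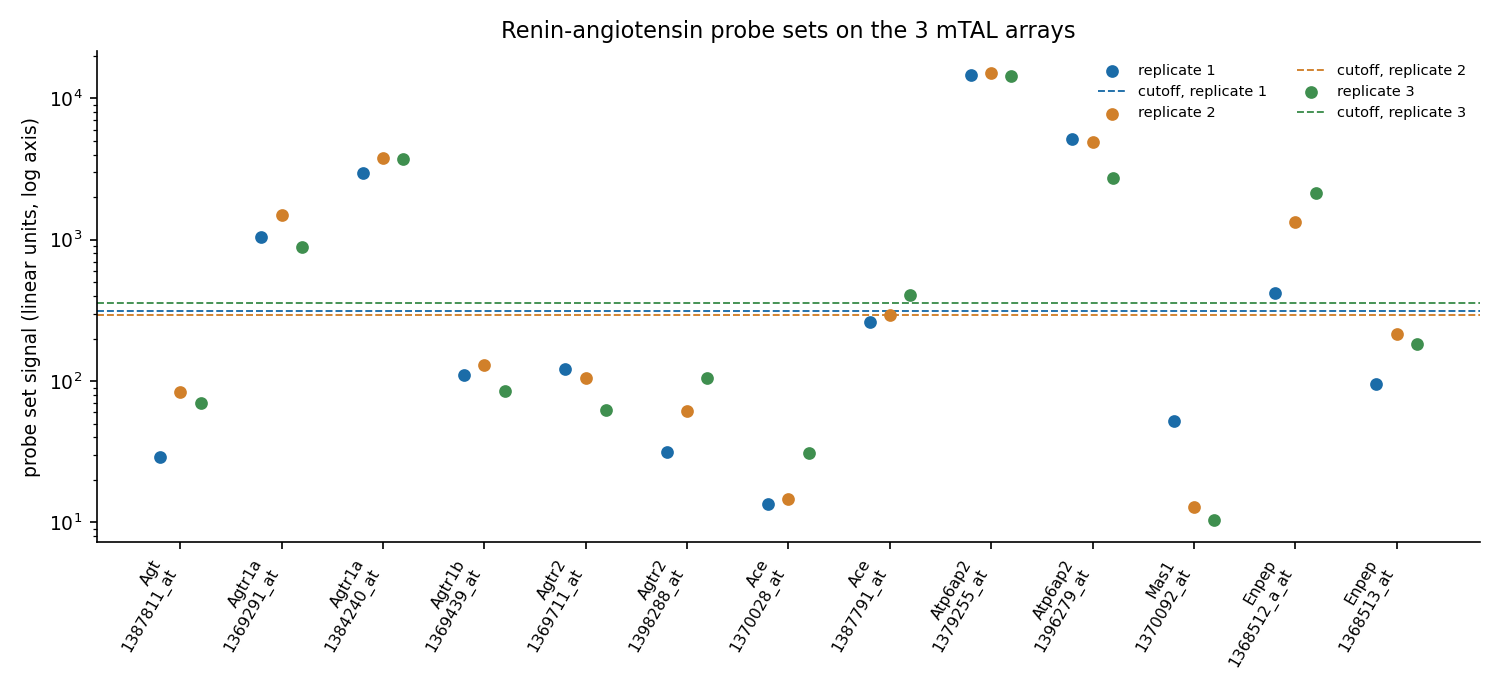
Signal of each of the 13 renin-angiotensin probe sets (linear units on a log axis) on the 3 mTAL arrays, with 1 point per array and the cutoff of each array as a dashed line. The probe sets of Agtr1a and Atp6ap2 and 1 of Enpep lie above the lines on all arrays, 1 of Ace lies on them, and the others lie under them.

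The preparations carried the markers of their segment, and the signals of markers of other kidney cells differed between arrays. All 14 measured thick ascending limb markers were called above the cutoff, beside 55.5% of all genes when each was represented by its brightest probe set. They included Umod (57036 ± 8031, SD, n = 3) and Egf (45192 ± 905), and their summed signal differed by at most 1.10-fold between arrays. The 21 measured proximal tubule markers had summed signals of 7352, 26621 and 83859 on replicates 1, 2 and 3, and all 21 were higher on replicate 3 than on replicate 1. Summed signals of the 11 endothelial markers were 16302, 29526 and 25185, and those of the 15 mural, juxtaglomerular and fibroblast markers 3375, 7205 and 7490. Summed signals of the 7 podocyte markers were 3375, 4556 and 4446. The largest parts of these sums were Podxl (1032, 1668 and 1597) and Cdkn1c (953, 1123 and 1621). Nphs1, Wt1 and Ptpro of the same list were called below the cutoff. Summed signals of the 10 principal cell markers (12113, 17334 and 27107), the 12 leukocyte markers (26238, 30597 and 32600) and the 7 intercalated cell markers (1559, 3325 and 3894) were also lowest on replicate 1 and highest on replicate 3. The 6 thin limb markers were all highest on replicate 2, with sums of 29229, 76614 and 44192, and the 5 distal convoluted and connecting tubule markers had sums of 635, 1063 and 1047. None of the markers was listed at 0. Called above the cutoff were 2 of the 21 proximal tubule, 8 of 11 endothelial, 5 of 6 thin limb and 6 of 10 principal cell markers. So were 3 of 7 podocyte, 2 of 15 mural, juxtaglomerular and fibroblast, 2 of 7 intercalated cell and 4 of 12 leukocyte markers. Of the 5 distal convoluted and connecting tubule markers 0 were called above. Of the proximal tubule markers 2 were called below and 17 passed neither test. Some of these 17 stood over the cutoff on 2 arrays with a wide spread, such as Kap (169, 7164 and 26093, SD 3.78 log2 units). Others, such as Slc22a6 (26.2, 155 and 290), stood under it on all arrays. The low number called above is thus not a low signal on every array. The leukocyte sum was mostly the signal of Cd74 (23219, 25140 and 27671), and 7 of the 12 leukocyte markers were called below. For Actb, the 3' control probe set exceeded the 5' one by 1.48, 1.18 and 1.95 log2 units, a difference that grows as RNA is degraded. For Gapdh the difference was smaller, at 0.51, 0.43 and 0.60 log2 units. Because these are bulk samples, fewer cells of a type and less RNA per cell cannot be told apart.

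Agtr1a, the receptor gene that accounts for most AT1 receptor in the rat kidney, was called above the cutoff by both of its probe sets. Probe set 1384240_at had signals of 2976, 3791 and 3728 on replicates 1, 2 and 3. Its mean of 3498 ± 453 (SD, n = 3) lay 3.44 log2 units above the cutoff, with a 95% interval from 2.96 to 3.92 (limma adjusted p = 0.000193). Probe set 1369291_at had signals of 1053, 1486 and 885. Every one of these stood over the cutoff of its array, by 1.80 log2 units on average, with an interval from 1.07 to 2.53 (limma adjusted p = 0.00340). The probe sets differed in which array was low. Replicate 3 was the lowest for 1369291_at and stood next to replicate 2 for 1384240_at, and the log2 ratio of 1369291_at over 1384240_at was -1.50, -1.35 and -2.07 on the 3 arrays. Replicate 2 was the highest for both, for 1384240_at only narrowly. With each array centred on its median probe set, 1384240_at was highest on replicate 3, at 0.157 from the mean of the others beside 0.101 for replicate 2. Replicate 2 also had the highest summed signals of thin limb, endothelial, podocyte, and distal convoluted and connecting tubule markers. Replicate 1, the lowest for 1384240_at, had the lowest sum of each of these lists. Of the 15 mural, juxtaglomerular and fibroblast markers 5 were highest on replicate 2 and 8 on replicate 3. The part of these cells in the Agtr1a signal was not tested.

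Agtr1b, the second rodent AT1 receptor gene, fell on the other side of the cutoff. Its only probe set had signals of 111, 131 and 85.1, all under the cutoff of their arrays. The mean of 109 ± 22.8 lay -1.58 log2 units from it, with an interval from -2.24 to -0.91 (limma adjusted p for below the cutoff = 0.00887). Agtr2, whose AT2 receptor is best known from fetal tissue, was below the cutoff by both probe sets. Probe set 1369711_at had signals of 123, 106 and 62.8, and 1398288_at had 31.7, 61.5 and 104. These probe sets ran in opposite directions over the arrays, the one highest on replicate 1 and the other highest on replicate 3. Their distances from the cutoff were -1.78 and -2.45 log2 units (limma adjusted p for below = 0.0112 and 0.00848). Mas1 had signals of 51.9, 12.9 and 10.4, with replicate 1 above the others, and lay -4.07 log2 units from the cutoff (limma adjusted p for below = 0.00756). Of the 4 receptor genes Agtr1a alone was called above the cutoff.

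The promoters of the AT1 receptor pair are shown because these genes encode closely related receptors and stood on opposite sides of the cutoff, and that of Atp6ap2 because both of its probe sets were called above the cutoff. Each is 300 bases, 250 before and 50 after the annotated start in RefSeq's rat assembly GRCr8, and 7 of the 8 genes had such an entry. All 3 are on the minus strand, at chr17:34435383-34435682 for Agtr1a, chr2:104849213-104849512 for Agtr1b and chrX:12883621-12883920 for Atp6ap2. Capitals mark matches, on either strand, to the letters of the TATA box (TATAAA), to those of the CCAAT box, and to those of the Sp1-binding GC box (GGGCGG).
Agtr1a: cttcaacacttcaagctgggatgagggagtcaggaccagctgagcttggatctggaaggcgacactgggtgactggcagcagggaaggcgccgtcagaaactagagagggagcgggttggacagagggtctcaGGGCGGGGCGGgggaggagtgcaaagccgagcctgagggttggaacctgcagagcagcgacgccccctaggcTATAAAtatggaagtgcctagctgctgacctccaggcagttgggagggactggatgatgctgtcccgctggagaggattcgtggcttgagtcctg
Agtr1b: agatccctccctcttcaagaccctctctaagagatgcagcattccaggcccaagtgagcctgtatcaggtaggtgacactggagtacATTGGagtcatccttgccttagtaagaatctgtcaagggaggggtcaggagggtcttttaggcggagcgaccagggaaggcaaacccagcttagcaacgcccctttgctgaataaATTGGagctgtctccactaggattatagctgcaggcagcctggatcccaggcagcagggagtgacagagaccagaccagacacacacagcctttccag
Atp6ap2: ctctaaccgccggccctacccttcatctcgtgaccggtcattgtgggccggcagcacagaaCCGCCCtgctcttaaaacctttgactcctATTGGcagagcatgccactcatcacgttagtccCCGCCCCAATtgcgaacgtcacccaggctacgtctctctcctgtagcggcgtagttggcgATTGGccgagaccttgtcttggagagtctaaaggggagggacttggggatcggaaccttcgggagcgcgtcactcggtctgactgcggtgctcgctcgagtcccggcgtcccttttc
The Agtr1a window held 1 TATAAA, which began 45 bases before the start, and 2 overlapping matches to GGGCGG. The Agtr1b window held neither of these and had 2 matches to CCAAT. The Atp6ap2 window held 3 matches to CCAAT and 2 to GGGCGG, of which 1 pair shares a base, and no TATAAA. The dinucleotide CG occurred 11 times in the Agtr1a window, 3 times in that of Agtr1b and 25 times in that of Atp6ap2, beside a median of 7 over the 33465 rat promoters of that length. Of those promoters 14.2% held TATAAA, 37.5% held CCAAT and 33.1% held GGGCGG. These matches describe letters in the windows and were not tested against the signals.

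Atp6ap2 encodes an accessory protein of the vacuolar proton pump (V-ATPase) that also binds renin and prorenin. Its probe set 1379255_at had signals of 14634, 15078 and 14335. The mean of 14683 ± 374 (SD, n = 3) lay 5.52 log2 units above the cutoff, with an interval from 5.07 to 5.97 (limma adjusted p = 0.000147). It varied little between arrays, with an SD of 0.037 log2 units beside a median of 0.16 over all probe sets called above the cutoff. Probe set 1396279_at had signals of 5124, 4904 and 2740, of which replicate 3 was low, and stood 3.68 log2 units above the cutoff (interval 2.83 to 4.53, limma adjusted p = 0.000614). The log2 ratio of 1396279_at over 1379255_at was -1.51, -1.62 and -2.39, so that replicate 3 was low for the first of these and not for the second. Replicate 3 also had the largest difference between the 3' and 5' probe sets of Actb, whose part in this value was not tested. The probe sets nearest to 1396279_at in their deviations over the 3 arrays, among 12430 above the cutoff on at least 1 array, were those of LOC102553541, the ubiquitin ligase gene Nedd4 and the membrane-linker gene Rdx, at distances of 0.00967, 0.0157 and 0.0160 log2 units. With 3 arrays many probe sets can lie this close.

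The pump that Atp6ap2 attaches to was called above the cutoff in nearly all measured subunits. Of 21 V-ATPase genes, each represented by its brightest probe set, 20 were above the cutoff and 1 passed neither test, beside 55.5% above and 30.2% below over all genes. The median of the list was 3.99 log2 units above the cutoff, beside 1.05 over all genes. The highest were the membrane-sector subunit Atp6v0c (16917 ± 1503) and the subunits Atp6v0e1 (12714 ± 1427) and Atp6v1e1 (12627 ± 37.8). Among those above the cutoff on at least 1 array, the largest SDs were those of Atp6v1g3, with signals of 415, 1391 and 1473, and Atp6v1b1, with 174, 373 and 636. Both are subunits known from intercalated cells, and the 7 measured intercalated cell markers, which include them, had summed signals of 1559, 3325 and 3894. Atp6v1b1 was the gene that passed neither test (limma adjusted p for above = 0.733).

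Agt itself was below the cutoff. Its only probe set had signals of 28.8, 83.6 and 70.0, with replicate 1 under the others and all of them under the cutoff. The mean log2 signal was -2.54 from the cutoff, with an interval from -3.60 to -1.48 (limma adjusted p for below = 0.00870). On the array with the strongest proximal tubule signal, replicate 3, Agt had 2.43-fold the signal of replicate 1, while the ratio of the summed proximal tubule markers was 11.4. With the 2 arrays left without replicate 3, the distance was -2.63 and the call below the cutoff was lost (limma adjusted p = 0.0539). Both Agt values lie in the range in which probe sets vary widely, since the median SD was 0.66 log2 units below the cutoff and 0.18 above it.

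The angiotensin converting enzyme gave no call on its brighter probe set. Ace probe set 1387791_at had signals of 261, 291 and 404, so that it lay under the cutoff on replicates 1 and 2 and over it on replicate 3. Its distance from the cutoff was -0.032 log2 units, with an interval from -0.51 to 0.45, and neither test passed (limma adjusted p = 1.000 for above and 0.962 for below). Without replicate 1 the distance was 0.088. Ace probe set 1370028_at had signals of 13.5, 14.7 and 30.8 and was called below the cutoff (-4.13 log2 units, limma adjusted p = 0.00179). Both probe sets were highest on replicate 3. The summed markers of proximal tubule, principal, intercalated, mural and leukocyte cells, the last mostly Cd74, were also highest there. Sums of endothelial (16302, 29526 and 25185), thin limb, podocyte, and distal convoluted and connecting tubule markers were highest on replicate 2. Ace is known from the proximal tubule brush border and from endothelium, and the part of these cells in its signal was not tested.

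Enpep varied most between arrays of the members called above the cutoff. Probe set 1368512_a_at had signals of 420, 1324 and 2148 on replicates 1, 2 and 3, each over the cutoff of its array. The highest was 5.11-fold the lowest, and the SD was 1.21 log2 units. On average it stood 1.73 log2 units above the cutoff, with an interval from 0.31 to 3.15 (limma adjusted p = 0.0305). The call was lost without replicate 2 (adjusted p = 0.1145) and without replicate 3 (0.131), where it stood 1.50 and 1.30 log2 units above the cutoff. The second probe set, 1368513_at, had signals of 94.6, 214 and 183 and was called below (-1.05 log2 units, limma adjusted p = 0.0410), so that the probe sets of this gene gave opposite calls. That call was lost without replicate 1 (-0.70 log2 units, adjusted p = 0.111) and without replicate 3 (-1.09, adjusted p = 0.144). Both had their lowest signal on replicate 1.

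The order of the arrays for 1368512_a_at was that of the proximal tubule list, in which 20 of 21 genes were highest on replicate 3. Relative to the median probe set of each array, the median proximal tubule marker lay at -2.11, -0.0032 and 2.16 log2 units on replicates 1, 2 and 3. Of the same list, only the enzyme genes Hao2 (3934, 7095 and 12142) and Ggt1 (1150, 2247 and 6005) were called above the cutoff, while 17 passed neither test. Enpep is known from the proximal tubule brush border and from podocytes. The podocyte sum was also lowest on replicate 1, but its largest parts were Podxl and Cdkn1c, and Nphs1, Wt1 and Ptpro were called below the cutoff. Relative to the median probe set of each array, 3 of the 7 podocyte markers were highest on replicate 1, 3 on replicate 2 and 1 on replicate 3. Principal cell, intercalated cell, mural and leukocyte sums, the last mostly Cd74, had the same order of arrays as Enpep 1368512_a_at. The part of these cells in the Enpep signal was not tested. Nearest to Enpep 1368512_a_at in their deviations over the 3 arrays were the probe sets of the mitochondrial carrier gene Sfxn1 (123, 399 and 630), the axonal adhesion gene Cntnap1 (82.3, 269 and 409) and the chemokine gene Ccl2 (176, 524 and 824), at distances of 0.0292, 0.0679 and 0.0889 log2 units.

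**Figure D2:**
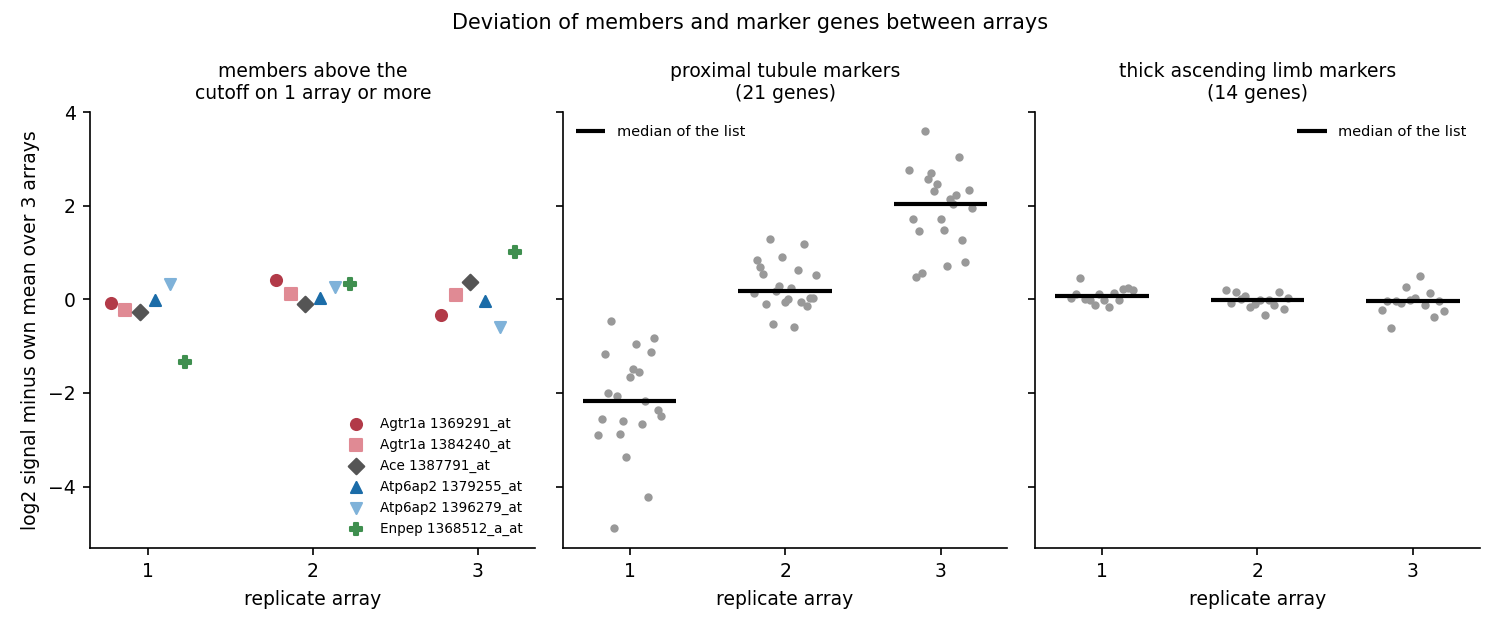
Log2 signal minus the probe set's own mean over the 3 arrays, for the 6 member probe sets above the cutoff on 1 array or more (left), for 21 proximal tubule markers (middle) and for 14 thick ascending limb markers (right); each point is 1 probe set on 1 array, points are shifted sideways to be seen, and bars are list medians. Enpep 1368512_a_at and the median of the proximal tubule markers are lowest on replicate 1 and highest on replicate 3, while the median of the thick ascending limb markers stays near 0. The other Enpep probe set, 1368513_at, is not shown and was highest on replicate 2.

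The intervals were computed by limma from log2 signal minus each array's cutoff, so they did not strictly follow the SD of the signal. Ace 1387791_at and Agtr1b had SDs of 0.33 and 0.31 log2 units, but intervals from -0.51 to 0.45 and from -2.24 to -0.91. Among the 5 member probe sets called above the cutoff, Enpep 1368512_a_at had the lowest bound of its interval, at 0.31. Agtr1a 1369291_at and Enpep 1368512_a_at had like distances of 1.80 and 1.73 but SDs of 0.38 and 1.21 log2 units.

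**Figure D3:**
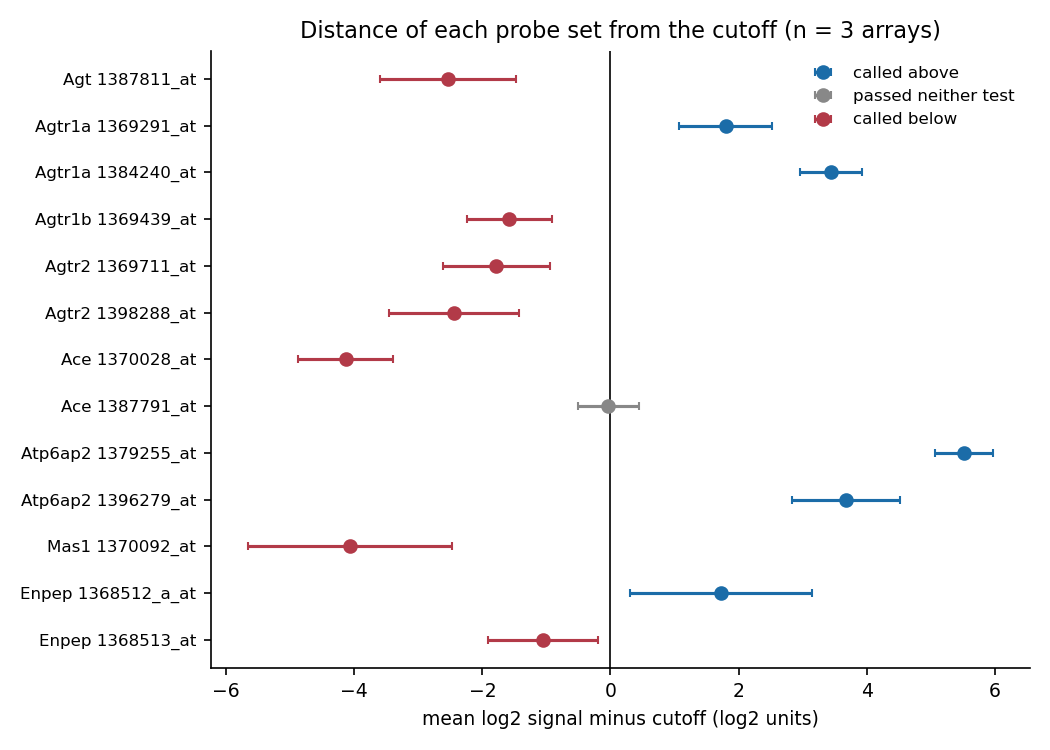
Mean log2 signal minus the cutoff for each of the 13 renin-angiotensin probe sets (points, n = 3 arrays) with the 95% interval from limma (bars); colours give the call and the vertical line marks the cutoff. The interval of Ace 1387791_at runs from -0.51 to 0.45 and includes the line.

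Of 16 measured genes for other peptidases and partners of the system, 7 were above the cutoff, 6 below it and 3 passed neither test, beside 55.5% above and 30.2% below over all genes, with a list median of 0.92 log2 units above the cutoff beside 1.05 over all genes. The highest were cathepsin A (Ctsa, 13332 ± 1355), which can act on angiotensin I, cathepsin D (Ctsd, 11313 ± 1381), an aspartic protease, and neprilysin (Mme, 9762 ± 1044), which cleaves several angiotensin peptides. Agtrap, whose protein binds the tail of the AT1 receptor and favours its internalisation, had signals of 1471, 1420 and 1395 and was called above the cutoff (limma adjusted p = 0.000441). Atp6ap1, the other accessory subunit gene of the V-ATPase (8141, 7757 and 7464), the aminopeptidase B gene Rnpep (9402, 10044 and 9454) and the prolyl endopeptidase gene Prep (1911, 1592 and 1839) were called above as well. These 4 genes and those named below the cutoff were chosen with their values in view.

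The 6 genes below the cutoff were Lnpep, Thop1, Prcp, Cma1, Klk1 and Bdkrb1. Cma1 encodes chymase, a mast cell enzyme that can form angiotensin II, and had signals of 7.37, 3.48 and 3.15. Prcp, a carboxypeptidase gene, had 60.9, 110 and 84.9, and the insulin-regulated aminopeptidase gene Lnpep had 77.1, 124 and 61.6. Among genes of the list above the cutoff on at least 1 array, the largest SDs were those of Anpep, the aminopeptidase N of the brush border (223, 1128 and 2690), and of the bradykinin receptor gene Bdkrb2 (96.9, 290 and 398). Neither of these passed a test, and both were lowest on replicate 1 and highest on replicate 3. The summed markers of proximal tubule, principal, intercalated, mural and leukocyte cells, the last mostly Cd74, had the same order.

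Of 29 measured genes through which AT1 receptors are known to signal, 19 were above the cutoff, 5 below it and 5 passed neither test. The list median was 1.00 log2 units above the cutoff, beside 1.05 over all genes, of which 55.5% were called above. The highest were the inositol trisphosphate receptor Itpr1 (5583 ± 523), the transcription factor Stat3 (4517 ± 693) and the G protein subunit Gna12 (3836 ± 244). Of the pair of G protein subunits that couple the receptor to phospholipase C, Gna11 had signals of 669, 530 and 419 and was called above the cutoff (limma adjusted p = 0.0397), while Gnaq had 510, 494 and 335 and was not called (adjusted p = 0.136). Phospholipase Plcb1 (1548, 1614 and 1679) was called above, and Plcb2 (22.5, 87.4 and 15.0), known from blood cells, was called below. Of the protein kinases C, Prkcd (3560, 4000 and 3862) and Prkcz (2651, 2976 and 3252) were called above and Prkca (103, 105 and 118) and Prkcb (37.3, 160 and 167) below. These G protein, phospholipase and kinase genes, Gna12 excepted, were chosen once their values were known. The largest SDs among genes above the cutoff on at least 1 array were those of Rgs5 (207, 1067 and 558) and Rgs2 (401, 587 and 1152), regulators of G protein signalling, of which Rgs2 was called above the cutoff (limma adjusted p = 0.0361).

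**Figure D4:**
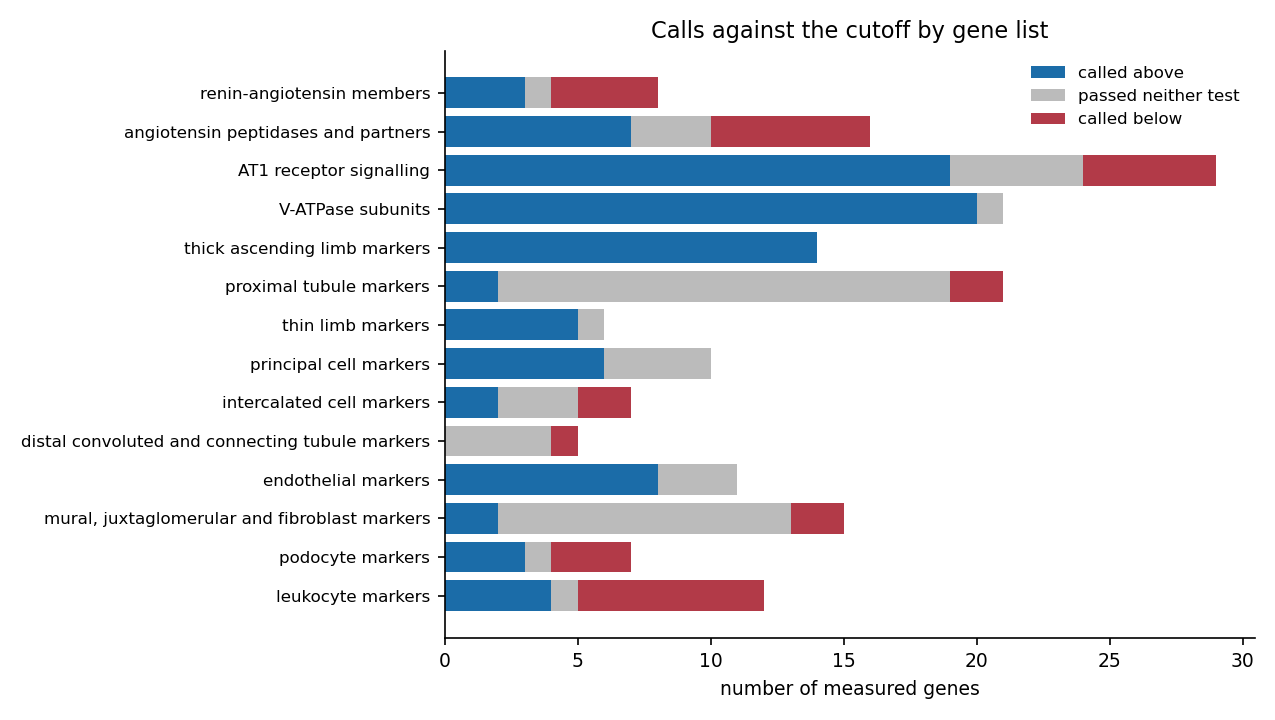
Number of measured genes called above the cutoff, passing neither test or called below it, for the renin-angiotensin members, 3 lists of partner genes and 10 marker lists; a gene with several probe sets is represented by the brightest. By that count 3 of the 8 members were above the cutoff, 4 below and 1 neither, beside 55.5% above and 30.2% below over all genes. Of the V-ATPase genes 20 of 21 were above.

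The calls of the members depended on where the cutoff was placed. The muscle gene Myh1 was left out of the other-tissue list because its probe sets had mean signals from 1866 to 42933. With its 5 probe sets added, the cutoff stood at 1956, 1412 and 2080. Of the members 1 probe set was then called above it, Atp6ap2 1379255_at, beside 2298 of all 20826 probe sets. Agtr1a 1384240_at then lay 0.96 log2 units above the cutoff (limma adjusted p = 0.0733) and 1369291_at lay -0.68 from it, and Atp6ap2 1396279_at lay 1.19 above it (adjusted p = 0.0689). With Myh1 added but 1 probe set per gene in the list, an alternative chosen after seeing the data, the cutoff was 505, 474 and 477, and both probe sets of Agtr1a and both of Atp6ap2 were called above it while Enpep 1368512_a_at was not (adjusted p = 0.147). At that cutoff Ace 1387791_at was called below (adjusted p = 0.0424). With the 90th percentile as the cutoff, Agtr1b and Agtr2 1369711_at were no longer called below it (adjusted p = 0.0826 and 0.0551), nor was Enpep 1368513_at, and Ace 1387791_at was called above it. Against the highest of the TrpnX control probe sets, whose transcript is not added to samples, 9 member probe sets were above the cutoff. Agtr1b and Agtr2 1369711_at were among them, and of all 20826 probe sets 15448 were above.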

How the data were processed

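Expression was measured in 3 mTAL preparations on 1 Affymetrix array each. The authors deposited 1 linear intensity per probe set and array (31099 probe sets, 57 of them controls). The summary method, software and scaling are not given in the sources used here. A trimmed mean, without the lowest and highest 2% of values, was the same on all arrays at 1000.0. Every value was above 0, so log2 was taken without a pseudocount or further scaling. In the platform annotation 20826 probe sets carried 1 gene and 436 several, and only the first were used. The identifiers of 20758 were found in RefSeq's GRCr8 gene table, which changed no symbol.

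Log2 signal minus each array's cutoff was fitted with limma 3.58.1 (lmFit, eBayes, R 4.3.3), one-sided above and below, adjusted by Benjamini and Hochberg over all 20826 probe sets. Of the 80 other-tissue genes listed, 74 were measured. The calls above the cutoff were tested on simulated data, in which the cutoff was the same on every array, unlike in the real data. Of 50 probe sets placed at each of 0.5, 1, 2 and 4 log2 units above it, 28, 39, 46 and 50 were called. Of 10311 calls 10 were false.

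Genes with several probe sets were represented in lists by the one with the highest mean. The text names every member probe set. Of each partner list it names the 3 called genes with the highest signal and the 2 with the largest SD among those above the cutoff on at least 1 array, and of marker lists up to 2 called genes with the highest signal. It also names the 3 probe sets nearest to each member probe set that was above the cutoff on at least 1 array and had an SD over 0.5. Other genes named were chosen with their values in view. The members and lists were chosen with earlier results of these data known. The number of arrays limits the precision. No depth exists for arrays.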

Additional observations from a re-analysis of the deposited data

How the results depend on the processing

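The calls depended on the cutoff. Quantile normalization, a pseudocount of 16 and a variance trend in limma, the last chosen after seeing the data, left 5 member probe sets above the cutoff and 7 below it. A common 75th percentile moves signal and cutoff alike and so could not change any value. With the 90th percentile as cutoff, 4 members were below the cutoff (4754 of all), and Ace 1387791_at lay 0.92 above it. At the 99th percentile 3 members were above (4205 of all, with 13399 below), and Agtr1a 1369291_at and Enpep 1368512_a_at lay at -0.19 and -0.26. With Myh1 in the list 1 member was above (2298 of all, with 14365 below), and these probe sets lay at -0.68 and -0.76. Against TrpnX 9 members were above (15448 of all) and 1 below (1495 of all), with Agt at 0.13, Agtr1b at 1.08, Agtr2 at 0.88 (1369711_at) and 0.22 (1398288_at), Ace 1387791_at at 2.63 and Enpep 1368513_at at 1.61. With 1 probe set per gene 3 members were above (7987 of all 14217) and 4 below (4208 of all). Without dim probe sets 0 members and 0 of all were below, since that filter left 6 members and 12050 probe sets for limma. Of these, 0 and 16 had an unadjusted limma p under 0.05 for below. When 1 array at a time was left out, 4 to 5 members were above and 5 to 7 below. Of all probe sets 8977 to 9724 were then above and 4815 to 6627 below, the lowest number without replicate 3, and Ace 1387791_at ran from -0.14 to 0.088. No paired analysis was possible because there was 1 group. The causes of these changes were not tested except where given.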
